A study of Mus musculus with 8 samples.

Results

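Smooth muscle and pericyte genes were followed through the mouse oral mucosa by site, replicate and section. The group holds 10 genes taken by symbol from the count tables, 6 contractile genes of smooth muscle (Acta2, Tagln, Myh11, Cnn1, Smtn and Synpo2) and 4 genes of pericytes (Rgs5, Abcc9, Kcnj8 and Pdgfrb), out of 33136 single-gene entries with a count. All 10 were found and all 10 passed the filters on low counts. The tissue came from wild-type C57BL/6J mice, whose age and sex the labels do not give. Buccal mucosa (the inner cheek), dorsal tongue, hard palate and ventral tongue were each sampled in 2 replicates by tomo-seq, which cuts a frozen block into serial sections and makes a barcoded library of each one. A sample had 20 sections of 14 µm, 280 µm in all, and RNA was counted by unique molecular identifiers (UMIs) with CEL-seq2, a method that reads the 3′ ends of transcripts. Replicates carry a number only, and no label ties them to separate animals. The p-values therefore speak only of the variation among these 8 samples, part of which may be technical.

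Smooth muscle cells wrap arteries, arterioles and veins and set their width by contracting. They do so with smooth muscle actin (Acta2) and myosin (Myh11), and with the actin-binding proteins transgelin (Tagln), calponin (Cnn1) and smoothelin (Smtn). Pericytes lie on capillaries in the same basement membrane as the endothelium, to which they are recruited when endothelial PDGF-B acts on the receptor Pdgfrb. Kcnj8 and Abcc9 encode the pore (Kir6.1) and the regulatory subunit (SUR2) of the ATP-sensitive potassium channel of vascular mural cells, and Rgs5 is a regulator of G protein signalling that marks them. Several of these genes are not specific to vessels. Splice forms of Abcc9 and Synpo2 are used by striated muscle, Synpo2 (myopodin) binding actin at the Z-disc, and activated fibroblasts can carry Acta2 and Pdgfrb.

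Contractile genes of smooth muscle are switched on by serum response factor at CArG boxes, and the promoter of Acta2 is shown because it is the textbook case. Promoters of 250 bases before to 50 bases after the gene start (RefSeq, GRCm38.p6) were at hand for 7 members, namely Acta2, Cnn1, Smtn, Synpo2, Rgs5, Abcc9 and Kcnj8. The strict CArG box, read the same on both strands, was in 0 of these 7 and in 1.63% of 32851 promoters. With 1 of the 6 middle bases allowed to be G or C, a search chosen after the data were seen, Acta2 had 2 boxes. They start 84 and 34 bases before the RefSeq gene start and are in capitals below. At least 1 such box was in 8.50% of all promoters and at least 2 in 0.679%. The promoter of Abcc9 is shown beside it because Abcc9 was among the members lowest in hard palate. Its capitals mark the E-box CAGCTG, a palindrome, which starts 27 bases before the RefSeq gene start. That E-box was in 3 of the 7 (Acta2, Rgs5 and Abcc9) and in 16.3% of all promoters. A match is a description of the letters, not of a factor bound there.
Acta2, chr19:34255324-34255623, minus strand: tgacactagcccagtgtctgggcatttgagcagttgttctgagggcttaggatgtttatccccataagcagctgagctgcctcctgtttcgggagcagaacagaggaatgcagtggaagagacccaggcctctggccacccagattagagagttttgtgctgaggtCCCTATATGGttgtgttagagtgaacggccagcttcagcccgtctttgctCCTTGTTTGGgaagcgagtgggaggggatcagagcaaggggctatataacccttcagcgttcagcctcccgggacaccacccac
Abcc9, chr6:142702225-142702524, minus strand: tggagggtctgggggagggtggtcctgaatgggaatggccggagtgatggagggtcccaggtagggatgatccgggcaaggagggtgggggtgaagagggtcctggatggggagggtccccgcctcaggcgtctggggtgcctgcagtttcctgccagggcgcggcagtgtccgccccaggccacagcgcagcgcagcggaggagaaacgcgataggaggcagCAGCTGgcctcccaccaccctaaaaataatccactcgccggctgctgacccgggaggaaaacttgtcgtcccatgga

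The 2 windows differed in base composition. The Acta2 window held 6 CG dinucleotides and was 54.7% G and C, near the median of all promoters (7 and 52.7%). The Abcc9 window held 16 and was 65.7%. In GRCm38 Acta2 lies at chr19:34241090-34255590, Myh11 at chr16:14194535-14291372 and Rgs5 at chr1:169655501-169695813. Synpo2 lies at chr3:123076519-123236149. Kcnj8 (chr6:142564837-142571614) and Abcc9 (chr6:142587862-142702315) are neighbours on the minus strand, 16247 bases apart. These spans are those of GENCODE, whose starts of Acta2 and Abcc9 lie upstream of the RefSeq starts. The boxes marked above for both genes therefore lie inside the spans given here. Tagln, Smtn, Synpo2 and Abcc9 overlap other annotated genes, some on the opposite strand, and whether strand was used in counting is unknown, so reads could be shared there. Acta2 has close actin relatives (Acta1, Actg2), and how reads common to them were counted is unknown too.

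The samples held 7830471 to 26376536 UMIs. Sections under 100000 UMIs numbered 6 of 160, 3 of them in buccal mucosa replicate 1. Buccal mucosa replicate 2, the shallowest sample, stood apart: its 15 keratinocyte genes, markers of the epithelium that a mucosa label implies, summed to 677 CPM (UMIs scaled to a common total per sample), against 22473 to 30755 CPM in the other 7 samples. It was also the highest in salivary gland genes (11228 against 17.2 to 76.4 CPM), adipocyte genes (3824 against 17.8 to 254) and skeletal muscle genes (44478 CPM). Skeletal muscle genes summed to 527 and 224 CPM in hard palate replicates 1 and 2, against 15429.5 CPM or more elsewhere, with all 18 genes of the list detected in each sample. In tissue sections, fewer cells of a type and less RNA per cell cannot be told apart.

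The filament genes Acta2, Tagln, Myh11 and Cnn1 were highest in buccal mucosa replicate 2, next in hard palate replicate 2, and low in dorsal tongue. Buccal mucosa replicate 2 was also the highest in salivary gland, adipocyte and skeletal muscle genes, and the part of those tissues in these levels was not tested. Acta2 was at 182 and 881 CPM in buccal mucosa replicates 1 and 2, 101 and 85.9 in dorsal tongue, 187 and 141 in ventral tongue, and 135 and 397 in hard palate. Both dorsal tongue samples lay below all 6 others, while the hard palate samples overlapped those of buccal mucosa and ventral tongue. Myh11 was at 43.1 and 248 CPM in buccal mucosa, 16.1 and 14.96 in dorsal tongue, 40.8 and 27.3 in ventral tongue, and 30.9 and 131 in hard palate. Its site means came in the same order as those of Acta2, with dorsal tongue again below every other sample. Tagln was at 24.5 and 181 CPM in buccal mucosa, 8.71 and 7.97 in dorsal tongue, 13.3 and 12.8 in ventral tongue, and 6.82 and 46.3 in hard palate. Here hard palate replicate 1 was the lowest of all samples and replicate 2 the second highest. Cnn1, a late marker of contractile smooth muscle, was at 2.96 and 57.6 CPM in buccal mucosa, 0.424 and 0.590 in dorsal tongue (9 and 12 UMIs), 2.22 and 1.66 in ventral tongue, and 3.89 and 15.6 in hard palate. Dorsal tongue was below all others and both hard palate samples were above both tongue sites and buccal mucosa replicate 1. For these 4 genes the spread within buccal mucosa and within hard palate was about as wide as the gap between sites, as their means show: Acta2 averaged 532 ± 494 CPM in buccal mucosa and 266 ± 186 in hard palate (SD, n = 2).

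Smtn and Synpo2 did not follow that order. Smtn was at 148 and 178 CPM in buccal mucosa, 139.9 and 178 in dorsal tongue, 213 and 196 in ventral tongue, and 135 and 101 in hard palate. It had the narrowest range of the 10 members, with ventral tongue above and hard palate below every other sample. Synpo2 was at 113 and 268 CPM in buccal mucosa, 115 and 77.3 in dorsal tongue, 216 and 124 in ventral tongue, and 8.68 and 18.8 in hard palate. Both hard palate samples were below all others, and the buccal and ventral tongue samples overlapped.

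**Figure D1:**
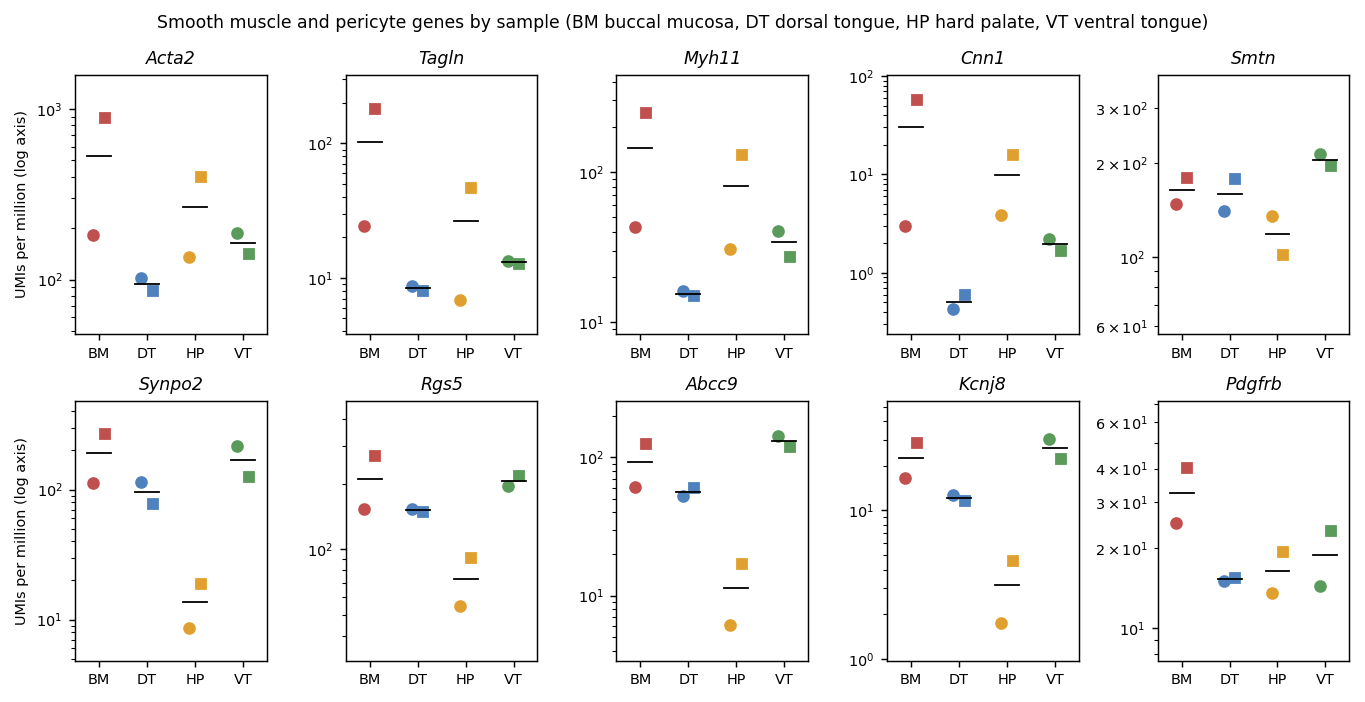
CPM (log axis, a separate range for each gene) of the 10 members in each sample, with circles for replicate 1, squares for replicate 2 and a line at the mean of the 2 replicates of a site. Synpo2, Abcc9 and Kcnj8 are lowest in both hard palate samples, whereas Acta2, Tagln, Myh11 and Cnn1 are highest in buccal mucosa replicate 2 and next in hard palate replicate 2.

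Of the pericyte genes, Rgs5, Abcc9 and Kcnj8 were low in hard palate and Pdgfrb was not set apart there. Rgs5 was at 154 and 270.1 CPM in buccal mucosa, 154 and 149.5 in dorsal tongue, 196 and 218 in ventral tongue, and 55.1 and 91.7 in hard palate. Abcc9 was at 60.9 and 125 CPM in buccal mucosa, 52.4 and 60.5 in dorsal tongue, 143 and 119 in ventral tongue, and 6.09 and 16.8 in hard palate. Kcnj8 was at 16.6 and 28.6 CPM in buccal mucosa, 12.6 and 11.6 in dorsal tongue, 30.5 and 22.2 in ventral tongue, and 1.75 and 4.55 in hard palate. For all 3 genes both hard palate samples lay below the other 6. The order of the site means of Abcc9 and Kcnj8 was ventral tongue, buccal mucosa, dorsal tongue and hard palate, and only ventral tongue and buccal mucosa overlapped as neighbours. For Rgs5 ventral tongue lay above dorsal tongue in both samples, while buccal mucosa overlapped both. Pdgfrb was at 24.8 and 40.1 CPM in buccal mucosa, 15.1 and 15.5 in dorsal tongue, 14.5 and 23.3 in ventral tongue, and 13.5 and 19.3 in hard palate. Buccal mucosa was above every other sample for Pdgfrb, and the other 3 sites overlapped.

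Hard palate was set against the mean of the other 3 sites by edgeR's quasi-likelihood test over all genes, and a gene was called at a Benjamini-Hochberg adjusted p below 0.05. Of the 10 members 4 were lower and none higher, where 9.76% of the 18609 genes tested passed (6.42% lower, 3.35% higher). Synpo2 fell by 3.71 ± 0.60 on the log2 scale (SE; adjusted p = 0.0135), Abcc9 by 3.24 ± 0.54 (adjusted p = 0.0153) and Kcnj8 by 2.90 ± 0.49 (adjusted p = 0.0155). Rgs5 fell by 1.66 ± 0.35 (adjusted p = 0.0330). The filament genes did not pass, with log2 fold changes of 0.10 ± 0.64 for Acta2, -0.06 ± 0.85 for Tagln, 0.62 ± 0.70 for Myh11 and 1.35 ± 0.93 for Cnn1. Smtn was at -0.86 ± 0.26 (adjusted p = 0.0915) and Pdgfrb at -0.66 ± 0.31 (adjusted p = 0.238). The median was -2.28 over the 4 pericyte members and 0.02 over the 6 contractile members, beside -0.01 over all genes tested. Without buccal mucosa replicate 2 the 4 genes still fell, with log2 fold changes of -3.46 for Synpo2, -3.04 for Abcc9, -2.75 for Kcnj8 and -1.51 for Rgs5 (adjusted p = 0.00378 to 0.00871). In that fit Smtn at -0.82 (adjusted p = 0.0471) and Cnn1 at 2.47 (adjusted p = 0.0215) passed as well, where 16.4% of all genes did. The calls depended on single samples. Fewer of the 10 passed in several of the 8 fits that left out 1 sample, and fewer of all genes passed there too. Of the 4 calls, that of Rgs5 was lost in most of these fits, more often than the others, and that of Synpo2 least often. In all 8 the 4 folds stayed negative, at -4.32 to -3.20 for Synpo2 and -4.11 to -2.63 for Abcc9. Kcnj8 was at -3.71 to -2.32 and Rgs5 at -2.02 to -1.28.

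**Figure D2:**
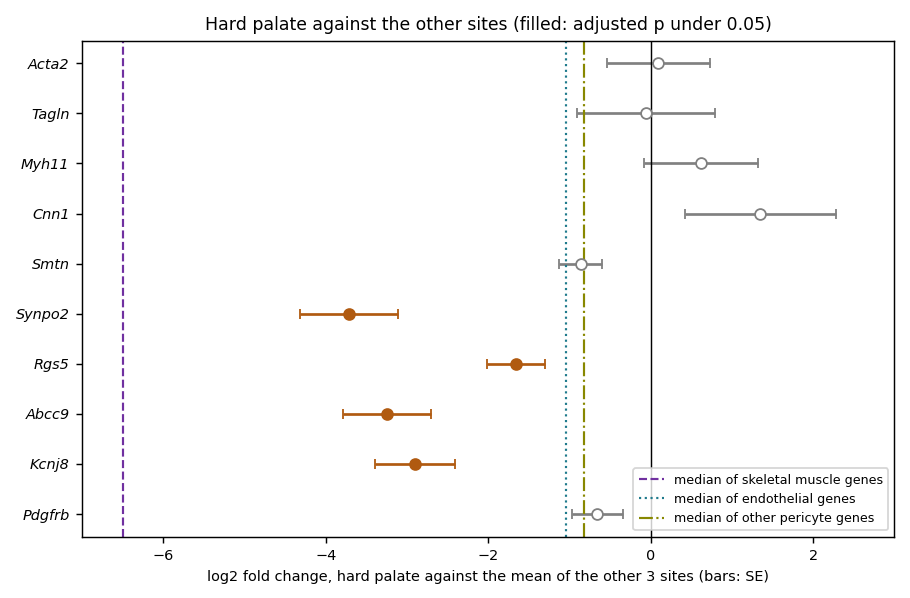
Log2 fold change of each member in hard palate against the mean of the other 3 sites (x axis, bars are SE, filled points have adjusted p under 0.05), with vertical lines at the medians of 3 other gene lists. Synpo2, Abcc9, Kcnj8 and Rgs5 lie to the left, between 0 and the median of the skeletal muscle genes at -6.49, and the filament genes lie between -0.06 and 1.35.

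Genes with related roles in hard palate were read from lists of other markers. Of 20 other pericyte genes 4 were lower and none higher, with a median of -0.83. They were the matrix protein vitronectin Vtn (-4.24 ± 0.64), the ectoenzyme Art3 (-3.41 ± 0.48), Higd1b (-2.02 ± 0.40) and the cytochrome oxidase subunit Cox4i2 (-1.60 ± 0.36). Of the 20 folds, 6 were above 0. The proteoglycan Cspg4 (NG2) and Ndufa4l2 of that list, chosen after their values were seen, did not pass. Cspg4 was at 68.4 and 73.6 CPM in hard palate against 26.3 to 39.2 CPM elsewhere. Ndufa4l2 was at 444 and 361 CPM in hard palate against 15.5 to 239 CPM elsewhere. Of 22 other smooth muscle genes 4 were lower and 2 higher, with a median of 0.00. The 4 lower ones, Des (-6.63), Nexn (-4.23), Tpm2 (-3.98) and Tpm1 (-3.96), encode desmin, nexilin and tropomyosins, which striated muscle carries as well. The 2 higher ones were the integrin subunit Itga8 (2.19 ± 0.48), at 6.31 and 20.3 CPM in hard palate against 0.590 to 10.98 CPM elsewhere, and its ligand Npnt (1.22 ± 0.21), at 64.9 and 59.6 against 17.8 to 31.8 CPM.

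Of 7 partners of the channel and of the receptor, 1 was lower and 1 higher in hard palate. Kcnj11, the other ATP-sensitive pore subunit (Kir6.2), which striated muscle pairs with Abcc9, was at 29.3 and 42.9 CPM in buccal mucosa, 20.8 and 22.2 in dorsal tongue, 56.7 and 40.2 in ventral tongue, and 0.169 and 0.227 in hard palate. Both hard palate samples were near the level that 3 UMIs would give (0.169 and 0.114 CPM), so the size of the fall is poorly known, with adjusted p = 0.00279. Kcnj11 was called higher in each of the other 3 sites, by 3.27 ± 0.25 in ventral tongue (adjusted p = 0.0175), 2.53 ± 0.25 in buccal mucosa (adjusted p = 0.0426) and 1.82 ± 0.25 in dorsal tongue (adjusted p = 0.0316), each set against a mean that includes hard palate. The ligand Pdgfb was at 14.6 and 18.96 CPM in hard palate and 23.4 to 44.7 CPM elsewhere, which did not pass, and Pdgfc rose by 1.63 ± 0.30 (adjusted p = 0.0213).

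Other cell types changed in hard palate beside these genes. Of 18 skeletal muscle genes 14 were lower, with a median of -6.49, and of 15 endothelial genes tested Cdh5 (-2.06 ± 0.41) and Esam (-1.50 ± 0.28) were lower, with a median of -1.04 and all 15 below 0. The endothelial list summed to 205 and 287 CPM in hard palate and to 269 to 771 CPM elsewhere, so the 2 ranges overlapped. The part of muscle and of endothelium in the falls of Synpo2, Abcc9, Kcnj8, Rgs5 and the other pericyte genes that fell, Art3 among them, was not tested. Within hard palate replicate 1, 3 sections had skeletal muscle genes at 2196 to 8555 CPM (sections 1, 4 and 19) and the other 16 deep enough were at 84.3 to 734 CPM. Synpo2 was at 12.7, 18.1 and 70.5 CPM in sections 1, 4 and 19, and at 0 to 17.3 CPM in the other 16, with a median of 5.84. Abcc9 was at 1.82, 11.3 and 20.1 CPM in those 3 sections and at 2.29 to 22.2 CPM in the other 16.

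The ratio of 2 members within a sample does not depend on its total. Per 100 UMIs of Acta2, hard palate held 4.52 and 4.24 UMIs of Abcc9, against 33.4 and 14.2 in buccal mucosa, 51.6 and 70.4 in dorsal tongue, and 76.4 and 84.1 in ventral tongue. Synpo2 stood at 6.44 and 4.72 per 100 Acta2 in hard palate, at 62.2 and 30.4 in buccal mucosa, and between 87.8 and 116 in the 4 tongue samples. Both ratios were lowest in the hard palate samples, next in buccal mucosa and highest in tongue. By contrast Myh11 stood at 15.9 to 33.0 per 100 Acta2 over all 8 samples, with 23.0 and 33.0 in hard palate. The neighbours Kcnj8 and Abcc9, whose products form 1 channel, had the smallest quotient of highest to lowest value among the 9 ratios computed, 1.54, with 18.6 to 28.7 UMIs of Kcnj8 per 100 of Abcc9 and 28.7 and 27.0 in hard palate. Levels of different genes are not compared by these ratios, only samples, and no test was made of them.

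**Figure D3:**
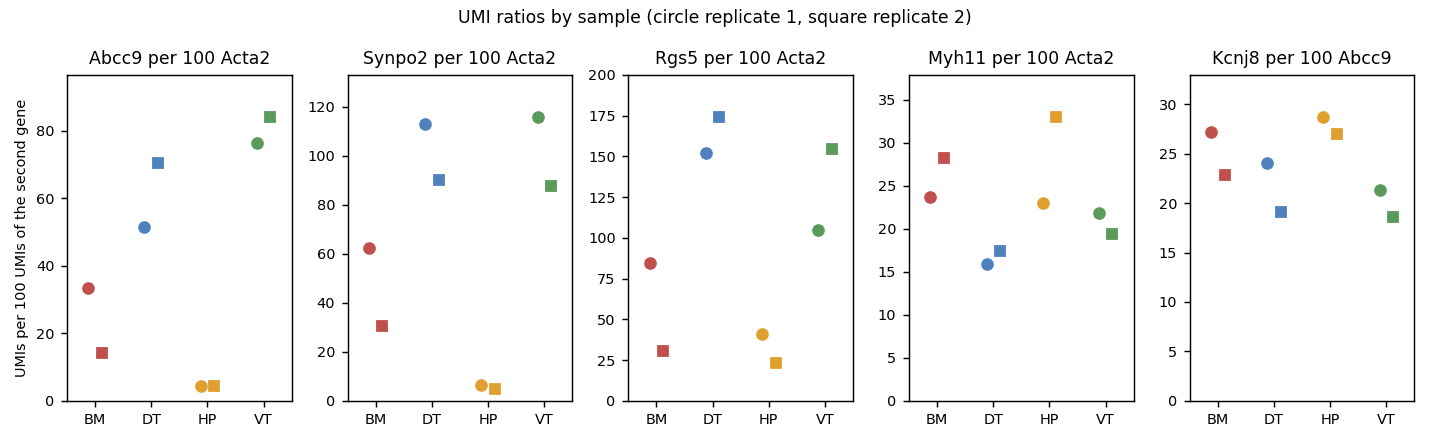
UMIs of the first gene per 100 UMIs of the second in each sample, from 0 upward on a linear axis (BM buccal mucosa, DT dorsal tongue, HP hard palate, VT ventral tongue). Abcc9 and Synpo2 per Acta2 are lowest in the 2 hard palate samples, and Kcnj8 per Abcc9 stays between 18.6 and 28.7.

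The other site comparisons called none of the 10 members. In the test of any difference between the 4 sites 4.77% of all genes passed, and Synpo2, Abcc9 and Kcnj8 came closest (adjusted p = 0.0542, 0.0542 and 0.0549). DESeq2 called 7 members there, and 3294 of all genes. Without buccal mucosa replicate 2 edgeR called 5, namely Synpo2, Abcc9, Kcnj8, Rgs5 and Cnn1, and 12.3% of all genes. Without buccal mucosa replicate 1 it called 8 members and 28.1% of all genes. Buccal mucosa against the rest called 0 members where 0.72% of all genes passed, while DESeq2 called 3 members and 1392 of all genes. There the largest folds were 3.78 ± 0.90 for Cnn1 (adjusted p = 0.0981), 2.81 ± 0.77 for Tagln and 2.02 ± 0.67 for Myh11, values that rest on buccal mucosa replicate 2. Without it they were 0.41, 0.72 and 0.24. Without replicate 1 instead, 8 of the 10 passed, in a fit that called 25.2% of all genes.

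Dorsal tongue called 0 members where 0.838% of all genes passed, 0.795% higher and 0.043% lower. DESeq2 called 1 member and 539 of all genes. Cnn1 was at -3.79 ± 1.30, resting on 9 and 12 UMIs in dorsal tongue, and Myh11 at -2.02 ± 0.83. Ventral tongue called 0 where 1.29% passed (by DESeq2 2 members and 849 of all genes), with Abcc9 at 1.85 ± 0.41 (adjusted p = 0.0994), Kcnj8 at 1.58 ± 0.38 and Synpo2 at 1.55 ± 0.44. Without buccal mucosa replicate 2 these 3 passed in ventral tongue, with adjusted p = 0.0195, 0.0340 and 0.0322, in a fit that called 6.69% of all genes. Skeletal muscle genes were higher there too, 6 of 18, and their part in it was not tested.

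Through the sections, all 10 members were higher in sections 11 to 20 than in sections 1 to 10 (edgeR's quasi-likelihood test with the sample as a block, adjusted p under 0.05), where 18.5% of the 15312 genes tested were higher and 13.8% lower, 32.3% in all. The labels do not say which end of the block is the surface. Keratinocyte genes were lower in the later sections, 10 of 15 and none higher, with a median of -0.48. This did not hold in every sample. Their summed CPM was slightly higher in the later sections of buccal mucosa replicate 1 and hard palate replicate 1 (log2 ratios of 0.05 and 0.11). It was lower in those of the other samples. The median fold was 1.22 over the contractile and 0.72 over the pericyte members, beside 0.02 over all genes tested.

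Acta2 showed the pattern in sections summed in fives. In hard palate replicate 2 it stood at 66.2, 113, 452 and 775 CPM in sections 1 to 5, 6 to 10, 11 to 15 and 16 to 20, and in replicate 1 at 61.2, 68.9, 178 and 268. In buccal mucosa replicate 1 the same sums gave 56.2, 121, 299 and 455 CPM. Acta2 climbed at every step in 7 of 8 samples. The exception was buccal mucosa replicate 2, at 875, 1158, 923 and 637 CPM, with its highest section at number 9. Over all samples Acta2 was higher by 1.21 ± 0.24 on the log2 scale (adjusted p = 0.00343), and by 1.42 without buccal mucosa replicate 2.

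**Figure D4:**
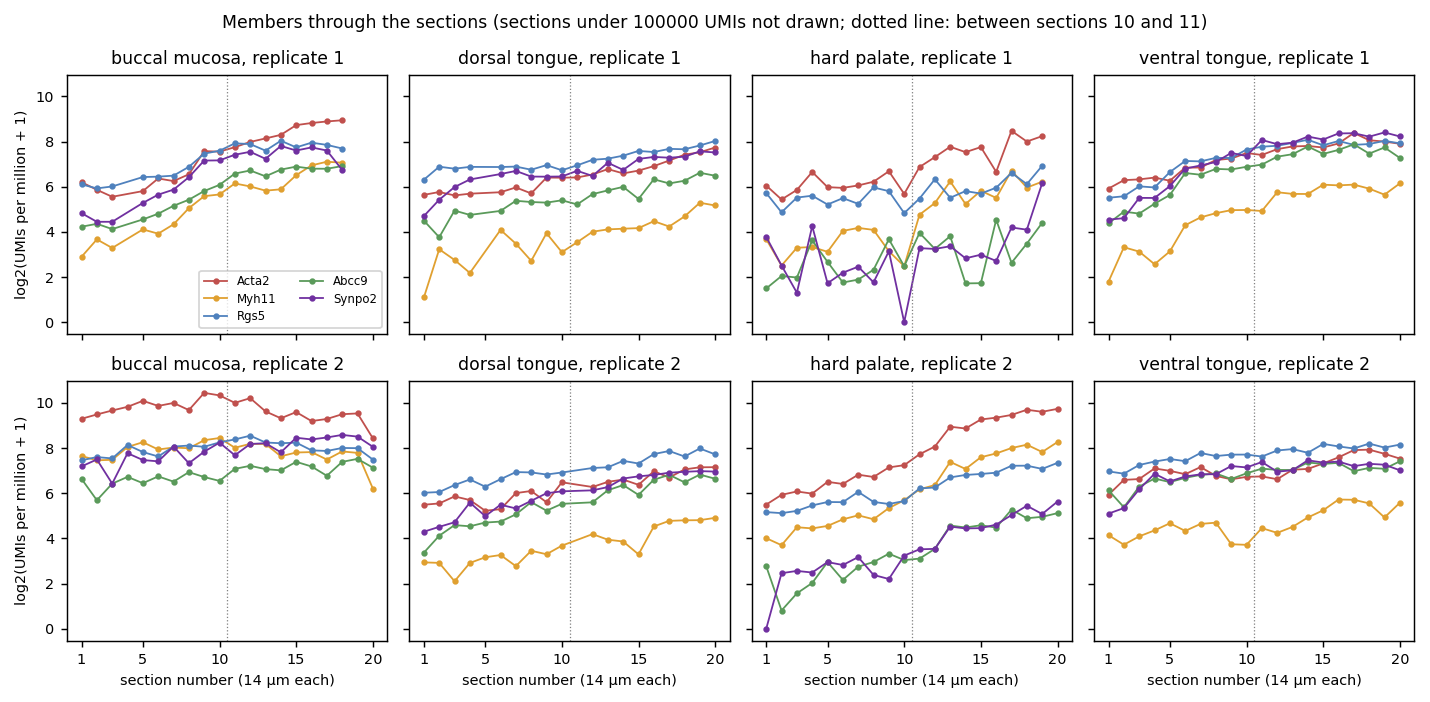
Log2(CPM + 1) of Acta2, Myh11, Rgs5, Abcc9 and Synpo2 by section number in each sample, with sections under 100000 UMIs left out. In 7 samples the genes drawn are higher in sections 11 to 20 than in sections 1 to 10, but not every line climbs throughout. Synpo2 and Rgs5 of buccal mucosa replicate 1, for example, are lower in sections 16 to 20 than in sections 11 to 15. In buccal mucosa replicate 2 Acta2 starts high and ends low.

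Myh11 behaved like Acta2, higher by 1.49 ± 0.26 (adjusted p = 0.00144), and climbed at every step in 7 of 8 samples. In hard palate replicate 2 it went from 18.5 CPM in sections 1 to 5 to 266 in sections 16 to 20, and in buccal mucosa replicate 2 from 247 to 205. Cnn1 was higher by 1.57 ± 0.42 (adjusted p = 0.0147) and Tagln by 1.16 ± 0.32 (adjusted p = 0.0158), each in 7 of 8 samples. Their largest ratios were in hard palate replicate 2, where Cnn1 went from 1.86 to 26.0 CPM and Tagln from 6.54 to 76.1 CPM between sections 1 to 10 and 11 to 20. In dorsal tongue Cnn1 had few UMIs, 2 and 7 in the earlier and later sections of replicate 1 and 3 and 9 in those of replicate 2. Tagln was at adjusted p = 0.0552 without buccal mucosa replicate 1, the only one of the 10 calls lost on leaving out any 1 of the 8 samples. Synpo2 was higher by 1.23 ± 0.15 (adjusted p = 0.000269) and Smtn by 0.46 ± 0.11 (adjusted p = 0.00839), both in 8 of 8 samples. Smtn had the smallest change of the 10, and in hard palate replicate 1 it was at 126 CPM in sections 1 to 10 and 145 CPM in sections 11 to 20.

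All 4 pericyte genes were higher in the later sections. Abcc9 was higher by 1.24 ± 0.15 (adjusted p = 0.00023) and Rgs5 by 0.80 ± 0.11 (adjusted p = 0.000415), both in 8 of 8 samples. Kcnj8 was higher by 0.63 ± 0.13 (adjusted p = 0.00413) and Pdgfrb by 0.57 ± 0.12 (adjusted p = 0.00422), both in 7 of 8, the exception again being buccal mucosa replicate 2. Rgs5 went from 46.4 to 126 CPM between sections 1 to 10 and 11 to 20 of hard palate replicate 2 and from 246 to 288 CPM in buccal mucosa replicate 2. In the latter only Smtn, Synpo2, Rgs5 and Abcc9 were higher in the later sections, and in each of the other 7 samples all 10 members were.

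**Figure D5:**
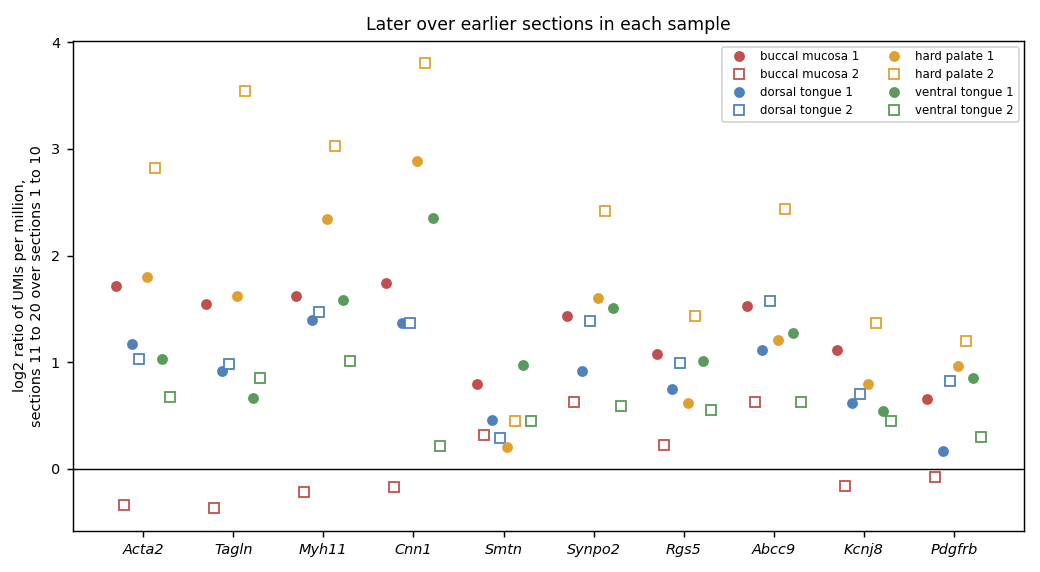
Log2 ratio of CPM in sections 11 to 20 over sections 1 to 10 for each member in each of the 8 samples (filled circles replicate 1, open squares replicate 2). All points lie above 0 except 6 of buccal mucosa replicate 2, and the highest points of Acta2, Tagln, Myh11 and Cnn1 belong to hard palate replicate 2.

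Whether the difference between earlier and later sections depended on the site was tested by an interaction term. None of the 10 members passed, where 0.359% of all genes did, the lowest edgeR adjusted p being 0.156 for Cnn1. DESeq2 called 0 members and 403 of all genes. The per-sample log2 ratios of Cnn1 were 2.89 and 3.80 in hard palate, 1.37 and 1.36 in dorsal tongue, 2.35 and 0.21 in ventral tongue, and 1.74 and -0.17 in buccal mucosa. The tongue ratios are poorly known, with 9 and 12 UMIs of Cnn1 in dorsal and 36 and 34 in ventral tongue. Without buccal mucosa replicate 1 the interaction passed for Acta2, Tagln, Myh11 and Cnn1 (adjusted p = 0.0120, 0.0176, 0.0033 and 0.0148), in a fit that called 5.61% of all genes and where buccal mucosa was represented by its replicate 2 alone.

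Many genes of the other smooth muscle, pericyte and endothelial lists were higher in the later sections along with the members. Not all of them are specific to vessels, as striated muscle carries Des, Nexn, Tpm1 and Tpm2 as well. Of 21 other smooth muscle genes tested 17 were higher and none lower, with a median of 0.70, led by phospholamban Pln (1.85 ± 0.32), the potassium channel subunit Kcnmb1 (1.66 ± 0.35), enteric actin Actg2 (1.36 ± 0.38) and the myosin light chain Myl9 (1.204 ± 0.253). Of 20 other pericyte genes 9 were higher, with a median of 0.58, led by Art3 (1.04 ± 0.15), the amine oxidase Aoc3 (1.03 ± 0.28) and Vtn (0.95 ± 0.17). Summed over that list, CPM was lower in the later sections of ventral tongue (log2 ratios of -0.06 and -0.17) and of buccal mucosa replicate 2 (-0.21). The sum was higher in the other samples. Of 15 endothelial genes 14 were higher, with a median of 0.78, such as VE-cadherin Cdh5 (0.97 ± 0.13) and Pecam1 (0.87 ± 0.13). Skeletal muscle genes were higher in 13 of 18 cases and fibroblast genes in 7 of 14, with medians of 0.88 and 0.30. In hard palate replicate 1 the summed skeletal muscle genes went from 585 to 454 CPM between sections 1 to 10 and 11 to 20, while Acta2 went from 64.0 to 223 CPM. The part of these other cell types in the rise of the members was not tested.

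The PDGF and channel partners were higher as well in 4 of 6 cases tested. Kcnj11 was higher by 1.19 ± 0.14, Pdgfd by 0.96 ± 0.22, Pdgfb by 0.35 ± 0.08 and Pdgfa by 0.26 ± 0.08. The receptor Pdgfrb, at 0.57, and its ligand Pdgfb thus both rose with section number.

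Section by section, with log2(CPM + 1) centred on the mean of each sample, the members were compared over 160 sections. These points share libraries, depth and the trend with section number, and the correlations are descriptions. Rgs5 and Abcc9 had the highest Pearson r of the 45 pairs (0.83), followed by Acta2 with Myh11 (0.80). Cnn1 with Kcnj8 had the lowest (0.23). The median r was 0.59 over the 15 contractile pairs, 0.71 over the 6 pericyte pairs and 0.51 over the 24 mixed pairs. These orders rested on the 6 shallow sections. Over the 154 sections of at least 100000 UMIs, a choice made after the data were seen, the medians were 0.70, 0.57 and 0.62, the highest pairs were Acta2 with Myh11 (0.92) and Synpo2 with Rgs5 (0.89), and the lowest was Kcnj8 with Pdgfrb (0.38). Over all 160 sections, of the marker lists, the endothelial genes had r = 0.88 with Abcc9, 0.86 with Rgs5, 0.84 with Myh11 and 0.83 with Pdgfrb. Acta2 had r = 0.67 with the endothelial genes, 0.75 with the other smooth muscle genes and 0.76 with the fibroblast genes. The skeletal muscle genes had r = 0.73 with Synpo2, their highest, and 0.38 with Cnn1, their lowest. Keratinocyte genes ran against all 10 members, from -0.21 with Cnn1 to -0.60 with Smtn. Over the 154 deeper sections the endothelial genes had their highest r with Rgs5 (0.92) and 0.80 with Abcc9, the skeletal muscle genes still with Synpo2 (0.82), and keratinocyte genes ran from -0.25 with Kcnj8 to -0.66 with Smtn.

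The genes most like the members were taken as those with the highest r among 10101 genes of at least 10 CPM. For the mean profile of the contractile members they included Myl9 (0.87), the fatty acid binding protein Fabp4 (0.84), the lipase Lpl (0.82) and the focal adhesion protein Tns1 (0.80). For the mean of the pericyte members they were the basement membrane collagen Col4a1 (0.90), Slc9a3r2 (0.89), Cd300lg (0.88), Cap2 (0.88) and Rhoc (0.87). Over the 154 deeper sections only Myl9 (0.88) of the genes named for the contractile profile and none of those named for the pericyte profile stayed among the first 5. The pericyte list then read Lpl (0.89), Fabp4 (0.88), Tns1 (0.87), Aldh1a1 (0.87) and Anxa6 (0.87), so these orders rest in part on 6 shallow sections. By single member over all sections, the closest gene was the hypoxia factor Epas1 for Rgs5 (0.93), Myl9 for Myh11 (0.90), Afap1l1 for Abcc9 (0.88), Jam2 for Kcnj8 (0.76) and Nr2f2, a factor of vein identity, for Pdgfrb (0.84). It was the matrix protein Mgp for Acta2 (0.86), Sorbs2 for Tagln (0.74), Mustn1 for Cnn1 (0.65) and the respiratory chain gene Uqcr10 for Smtn (0.74). Over the 154 deeper sections the closest gene was another one for each of these members except Myh11, for which it was again Myl9 (0.88).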

How the data were processed

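The authors trimmed reads with Trim Galore 0.6.10, aligned them with STAR 2.7.9a and used GRCm38, per the submitters' processing notes; the program that counted them is not given. The deposited tables hold, per gene and section, counts of reads, counts of distinct UMIs and estimated counts of transcripts, per the values in the files as the authors deposited them. Distinct UMI counts were used; the estimated counts were rounded. Entries naming several genes (413, 0.185% to 0.251% of UMIs) stayed out of tests. Sections were summed per sample for the sites, and per 10 sections for the trend, with the sample as a block. edgeR 4.0.16 (R 4.3.3; TMM, filterByExpr, quasi-likelihood F-test, Benjamini-Hochberg) gave folds, with SE as the fold over the root of F. DESeq2 1.42.0 was an alternative. Data were also simulated with 1 dispersion (the spread between replicates) of 0.05 for every gene. In the hard palate comparison 37% of genes changed by a log2 fold of 1 and 100% of those changed by 2 were recovered. In the interaction 4% and 69% were. Those shares hold for that setting only. Real replicates could differ widely, with Acta2 at 182 and 881 CPM in buccal mucosa, and Cnn1 was not called there at a fold of 3.78. A member reached at most 1670 UMIs in a section. Members and lists were chosen with earlier results of these data known. Genes named from a list are the up to 4 called ones with the largest fold, and others where stated or where a role made them partners of a member. Some genes that the likeness rule picks are not reported here.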

Additional observations from a re-analysis of the deposited data

How the results depend on the processing

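Of single-gene values outside the fits leaving out a sample, 506 kept direction and call, 42 newly passed and 10 changed sign; of those leaving out 1 sample, 494 kept both, 33 newly passed, 15 lost the call and 18 changed sign. The cause was not tested. Counts of all genes called moved as follows. For any site, 887 became 3294 with DESeq2, 4522 with no filter and 362 with the replicate number as a block. For buccal mucosa 134 became 1392, 2584 and, with the block, 2. For dorsal tongue 156 became 539, 1282 and, with the block, 83. For ventral tongue 240 became 849, 1321 and, with the block, 48. For hard palate 1817 became 3109 with DESeq2 and 3728 with no filter. For the interaction 55 became 99 with RLE scaling, 403 with DESeq2, 1958 with no filter, 29 with reads and 2 for sections 16 to 20 against 1 to 5. Members called went from 0 to 7 (DESeq2), 8 (no filter) and 1 (reads) for any site, to 3 and 6 for buccal mucosa, 1 and 3 for dorsal tongue and 2 and 4 for ventral tongue (DESeq2 and no filter), and to 5 for the interaction with no filter. Same-numbered samples had correlations of -0.21 to 0.54 over 6 pairs of sites, the highest between dorsal and ventral tongue. As 4 of the 6 were below 0, the numbers were not taken to pair samples across all sites.

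Leaving out 1 sample leaves a site with a lone sample, assumed to vary like the others. All genes called then ranged from 0 to 5684 for any site, 0 to 5093 for buccal mucosa, 1 to 1801 for dorsal tongue, 318 to 5526 for hard palate, 0 to 1320 for ventral tongue, 3515 to 5265 for later sections and 4 to 861 for the interaction. Members called ranged from 0 to 8 for any site and for buccal mucosa, 0 to 1 for dorsal tongue, 0 to 6 for hard palate, 0 to 3 for ventral tongue, 9 to 10 for later sections and 0 to 4 for the interaction.

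Folds that changed sign were all uncalled. Smtn in buccal mucosa was -0.016 with RLE scaling, -0.016 with DESeq2 and -0.026 with no filter, and -0.14 to 0.10 on leaving out a sample. Tagln in hard palate was 0.020 with no filter, 0.12 with reads and 0.012 with estimated transcripts, and -1.96 to 0.82 on leaving out a sample. Pdgfrb in ventral tongue was -0.012 with no filter, -0.043 with estimated transcripts and -0.0039 with the block, and -0.41 to 0.24 on leaving out a sample. Acta2 in hard palate was -0.043 with the block. On leaving out a sample it ranged from -0.83 to 0.74, Myh11 there from -0.71 to 1.39, and Acta2 in ventral tongue from -0.71 to 0.11. Leaving out sections under 100000 UMIs, an alternative added after the data were seen, moved no count of members called. With 2 samples a site, folds near 1 were often missed in the simulated data, and larger folds of members whose replicates differed widely were not called.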
